A study of Mus musculus with 8 samples.

Results

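Embryonic stem (ES) cells with a knockdown of Gadd45a were compared here with ES cells that lack AID (aid-/-) and with ES cells that lack MBD4 (mbd4-/-), over the CpG islands of the mouse autosomes. A region was counted where the knockdown array lay at least 1 scaled log2 unit above, or at least 1 below, each of the knockout arrays, with at least 75% of its probes on that side of each. Of 12824 regions with 3 or more probes, 1895 met this rule (14.8%): 975 were higher in the knockdown (7.6%) and 920 were lower (7.17%). The difference between the arrays chose these regions, so the differences below describe them and carry no test.

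The series asked about a route of demethylation at CpG islands in mouse ES cells. Methylated DNA was pulled down by methylated DNA immunoprecipitation, in which an antibody to 5-methylcytidine binds sheared, denatured DNA, and the bound DNA in Cy5 was hybridised with the input DNA in Cy3 to 1 CpG island array for each sample. The 8 samples were ES cells of 4 kinds, wild type, aid-/-, mbd4-/- and Gadd45a knock down, together with livers and spleens from C57BL6/J mice aged 6 months that were either aid-/- or mbd4-/-. Each was 1 array, so an error given here is the SD over the probes of a region and says nothing of the spread between cultures or animals. The labels give neither the ES line, the clone, nor the means of the knockdown, so line and genotype cannot be told apart. These arrays carry DNA and check neither the knockdown nor the ES identity of the cells.

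AID is a cytidine deaminase known from antibody gene diversification in B cells, and it has been proposed to deaminate methylated cytosine. MBD4 is a DNA glycosylase that binds methylated CpG and removes the thymine that such deamination leaves. Gadd45a is a small stress-response protein without known enzyme activity that has been proposed to bring repair enzymes to methylated DNA, so the 3 proteins have been placed in a shared route of demethylation by base excision repair.

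The values are log2 ratios of bound over input signal, relative to the median probe of the array and multiplied by 1 factor per array. The factor set the 98th percentile of regions, called the plateau here, to 3.37 on every array. A high value means that a region was bound by the antibody more than other regions of that array, and it is not a percentage of methylated cytosines. Regions at 50% of the plateau or more (1.68) are called high below, and regions under 25% of it (0.84) are called low. Before scaling the plateau was 2.8 on the knockdown array, 4.34 on aid-/-, 4.3 on mbd4-/- and 3.36 on wild type, so a scaled unit is not a fold change. The knockdown and mbd4-/- ES arrays were each alone on a slide and on a scan day, so slide, scan day and genotype cannot be told apart. These 2 shared a scanner, and aid-/- and wild type were read on another. The median SD over the probes of a region was 1.57 on the knockdown array, against 0.71 on aid-/-, 0.74 on mbd4-/- and 0.76 on wild type. On chromosome 8 the median input of the knockdown was 0.53 log2 above its array median, and 0.3 (aid-/-), 0.13 (mbd4-/-) and 0.45 (wild type) on the other ES arrays. There 13.4% of the regions were lower, and without that chromosome the counts were 938 higher and 820 lower.

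The probes of 4 regions show what was measured. Each is printed as deposited, 5′ to 3′, in build mm9, with every CpG in capitals, and is followed by its value in the knockdown, in aid-/-, in mbd4-/- and in wild-type ES cells. The files do not say which genome strand a probe follows, and no exon or intron annotation of this build was used.

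Nefm encodes the medium chain of neurofilaments, and its region (chr14:68741625-68743210, 14 probes) was the one furthest above the knockouts. These 3 probes hold 6, 4 and no CpG:
Nefm probe 11: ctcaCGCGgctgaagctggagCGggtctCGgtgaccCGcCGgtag (5.17, −1.01, 2.78 and 0.04)
Nefm probe 10: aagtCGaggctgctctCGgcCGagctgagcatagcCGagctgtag (5.03, −2.03, 2.92 and −1.47)
Nefm probe 14: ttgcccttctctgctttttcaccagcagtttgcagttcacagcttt (4.79, −0.18, 2.08 and −0.61)
The probe without a CpG was as high in the knockdown as those with several.

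Ston2, an endocytic adaptor gene of nerve terminals, had the region furthest below the knockouts (chr12:92885819-92886620). Its 6 probes are shown because every one lay below both knockouts and the differences varied along the region:
Ston2 probe 1: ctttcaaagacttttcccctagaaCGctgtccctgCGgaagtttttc (0.16, 2.73, 3.15 and 2.55)
Ston2 probe 2: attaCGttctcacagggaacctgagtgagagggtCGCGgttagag (−1.57, 3.40, 3.39 and 3.95)
Ston2 probe 3: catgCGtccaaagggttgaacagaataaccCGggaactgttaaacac (−1.64, 3.72, 3.85 and 4.55)
Ston2 probe 4: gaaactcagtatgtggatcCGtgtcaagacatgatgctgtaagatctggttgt (−3.03, 4.28, 3.93 and 4.42)
Ston2 probe 5: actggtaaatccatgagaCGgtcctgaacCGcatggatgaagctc (−4.37, 3.46, 4.11 and 4.00)
Ston2 probe 6: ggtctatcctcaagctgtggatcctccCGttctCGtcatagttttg (−0.92, 3.12, 3.95 and 3.28)
Bound signal was well above background on 3 of these 6 probes in the knockdown and on all 6 in each of the other ES arrays.

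Zrsr1 is a maternally methylated imprinted retrogene inside Commd1, and its region (chr11:22872000-22873052, 9 probes) stands for those where wild type lay beside the knockdown. Of the probes printed, 1 and 8 match the promoter windows of Zrsr1 and Commd1 in RefSeq (GRCm38.p6) letter for letter:
Zrsr1 probe 1: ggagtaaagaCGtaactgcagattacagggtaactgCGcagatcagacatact (−1.61, 2.75, 2.91 and −3.35)
Zrsr1 probe 4: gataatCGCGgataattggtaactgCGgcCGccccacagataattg (−0.09, 3.31, 3.31 and −0.81)
Zrsr1 probe 7: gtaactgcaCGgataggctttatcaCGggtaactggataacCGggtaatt (−4.38, 3.38, 3.24 and −2.80)
Zrsr1 probe 8: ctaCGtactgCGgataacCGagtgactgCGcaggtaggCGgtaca (−1.28, 2.86, 3.54 and −2.26)
Probes 1 and 7 were not well above background in the knockdown and in wild type, so there the low values are bounds.

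Lrtm2, which encodes a leucine-rich repeat membrane protein, shows a higher region with uneven probes (chr6:119280504-119280938):
Lrtm2 probe 1: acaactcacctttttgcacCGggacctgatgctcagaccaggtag (−0.68, −1.01, −0.31 and 0.08)
Lrtm2 probe 2: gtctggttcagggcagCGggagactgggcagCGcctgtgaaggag (2.33, 0.68, 0.14 and 1.17)
Lrtm2 probe 3: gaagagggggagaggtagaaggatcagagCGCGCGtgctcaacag (7.04, −0.74, −0.72 and −0.43)
Lrtm2 probe 4: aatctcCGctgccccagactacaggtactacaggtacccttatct (2.55, −0.39, −1.44 and 0.92)
The value of this region rests mainly on probe 3, and its probe 1 in the knockdown lay between those of the knockouts.

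**Figure D1:**
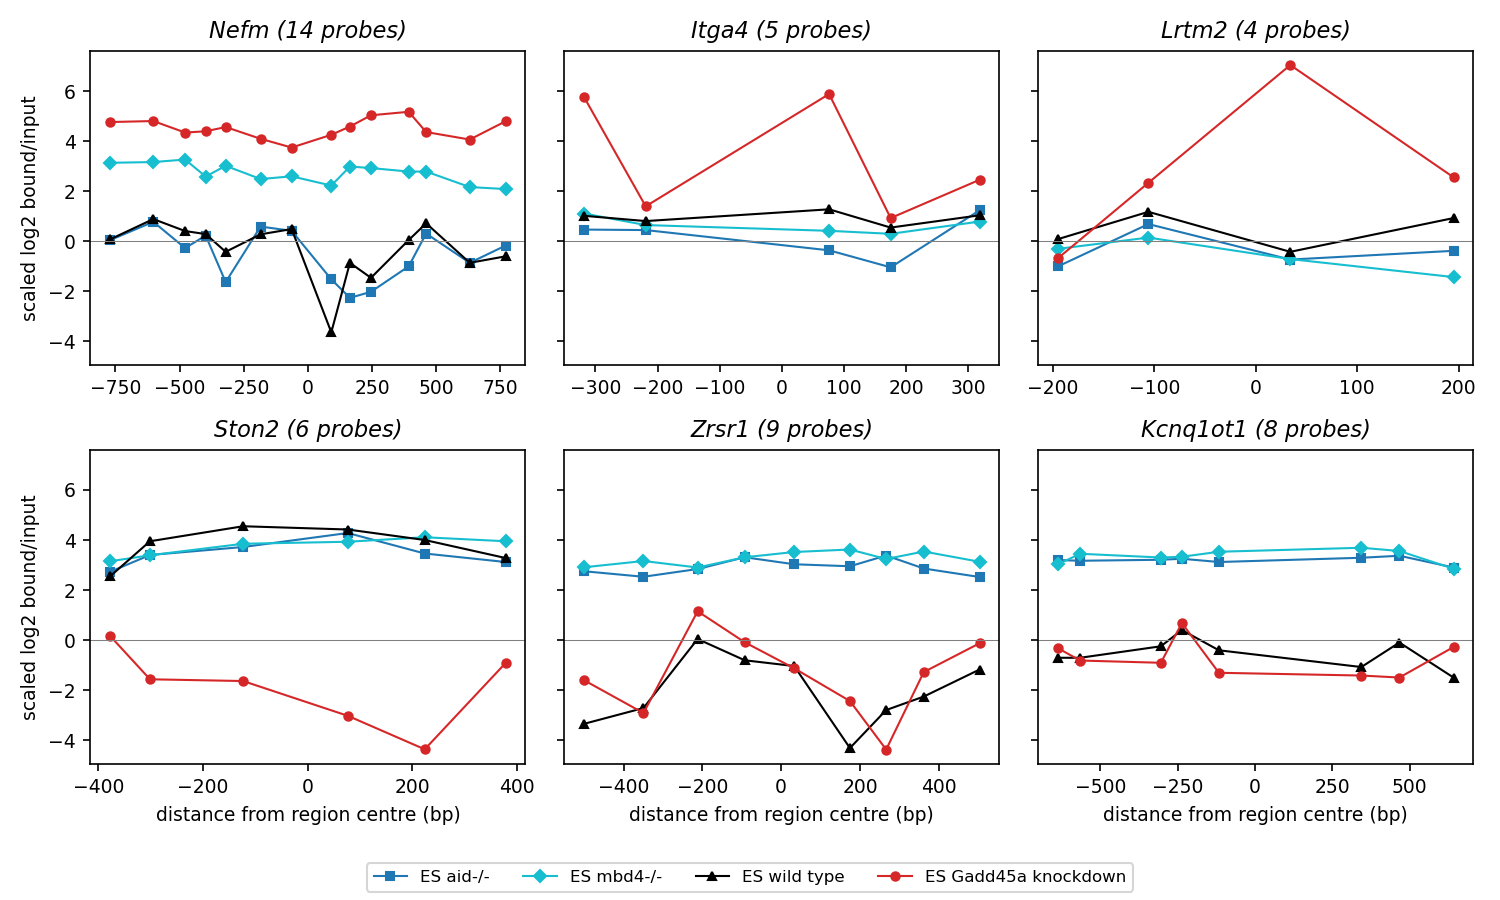
Scaled log2 bound over input of each probe (y axis) against its distance from the centre of the region in bp (x axis), for 3 higher regions (top) and 3 lower regions (bottom); red is the Gadd45a knockdown, blue aid-/-, cyan mbd4-/- and black wild-type ES cells. The knockdown is even along Nefm, reaches 7.04 on a single probe of Lrtm2, and lies beside wild type at Zrsr1 and Kcnq1ot1 but far below it at Ston2.

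The lower regions were of several kinds. In 397 of the 920 both knockouts were high, with medians of 2.74 (aid-/-) and 2.59 (mbd4-/-) against 0.5 in the knockdown and 2.04 in wild type. In 302 both knockouts were already low, and the knockdown lay lower still, at a median of −1.69 against −0.1 and −0.19. The other 221 lay between. All 397 of the first kind, but 152 of the 302, also differed by 1 log2 unit when no array was scaled. Read the other way, 968 regions were high in both knockouts, and 397 of them (41%) were lower in the knockdown, against 7.17% of all regions. The rule uses the same knockout values, and high values there favour a lower call in advance. The larger share is therefore a description and no support.

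The 10 largest lower regions lay 3.97 to 5.49 below the mean of the knockouts, with 3 to 9 probes each. At every one both knockouts and all 4 liver and spleen arrays were high, and the knockdown was low. Their probe ranges did not overlap between the knockdown and either knockout at any of the 10. Wild type divided them: it was high at 5, low at 3 and between at Mbd3 and Napepld.

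Ston2 stood at −1.89 ± 1.6 (SD over 6 probes) in the knockdown, against 3.45 ± 0.53 in aid-/- and 3.73 ± 0.38 in mbd4-/-. Wild type was at 3.79, and liver and spleen ranged from 3.34 to 3.76, so the knockdown array alone was low. Mbd3 encodes a subunit of the NuRD chromatin remodelling complex, and its region (chr10:79858095-79858432, 3 probes) stood at −2.78 ± 1.93 in the knockdown, 2.41 ± 0.88 in aid-/- and 2.07 ± 0.56 in mbd4-/-. The lowest of its 3 knockdown probes (−4.74) was not well above background, so its level there and its place in the order are uncertain. Wild type was at 1.36, below both knockouts and above the knockdown.

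Fam46b (Tent5b), a gene for a noncanonical poly(A) polymerase, stood at −1.56 ± 1.07 over 6 probes (chr4:133042110-133042810), against 3.32 ± 0.25 and 2.91 ± 0.18 in aid-/- and mbd4-/- and 2.75 in wild type. Bcdin3d, which encodes an RNA methyltransferase, stood at −0.98 ± 1.56 over 6 probes (chr15:99300814-99301276), against 2.93 ± 0.24, 3.25 ± 0.19 and 2.76. In both regions the knockdown was low and each of the other 7 arrays was high.

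Bcl7a, a subunit gene of the SWI/SNF chromatin remodeller, stood at −1.51 ± 0.73 over 4 probes (chr5:123821115-123821408), against 3.31 ± 0.26 in aid-/- and 2.81 ± 0.15 in mbd4-/-. Wild type, at 1.78, was below both knockouts and above the knockdown. Napepld, the gene of a phospholipase that makes N-acylethanolamines, stood at −1.43 ± 1.13 over 3 probes (chr5:21181527-21181895), against 2.89 ± 0.24, 2.46 ± 0.08 and 1.21 in wild type. Liver and spleen were at 3.58 to 4.06 there.

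Another 3 of the 10 are imprinted, and there wild type lay with the knockdown. Zrsr1 was at −1.43 ± 1.67 (knockdown) and −2.05 (wild type), against 2.91 ± 0.3 in aid-/- and 3.26 ± 0.27 in mbd4-/-. With normexp background correction its difference was −0.98, short of the threshold. Kcnq1ot1, the long noncoding RNA that silences its imprinted domain (chr7:150481208-150482535, 8 probes), was at −0.74 ± 0.74 (knockdown) and −0.54 (wild type), against 3.19 ± 0.14 and 3.34 ± 0.28. Nnat, a paternally expressed gene for a membrane proteolipid (chr2:157385700-157386395, 6 probes), stood at −0.21 ± 1.79 and 0.43, against 3.37 ± 0.32 and 4.15 ± 0.31.

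**Figure D2:**
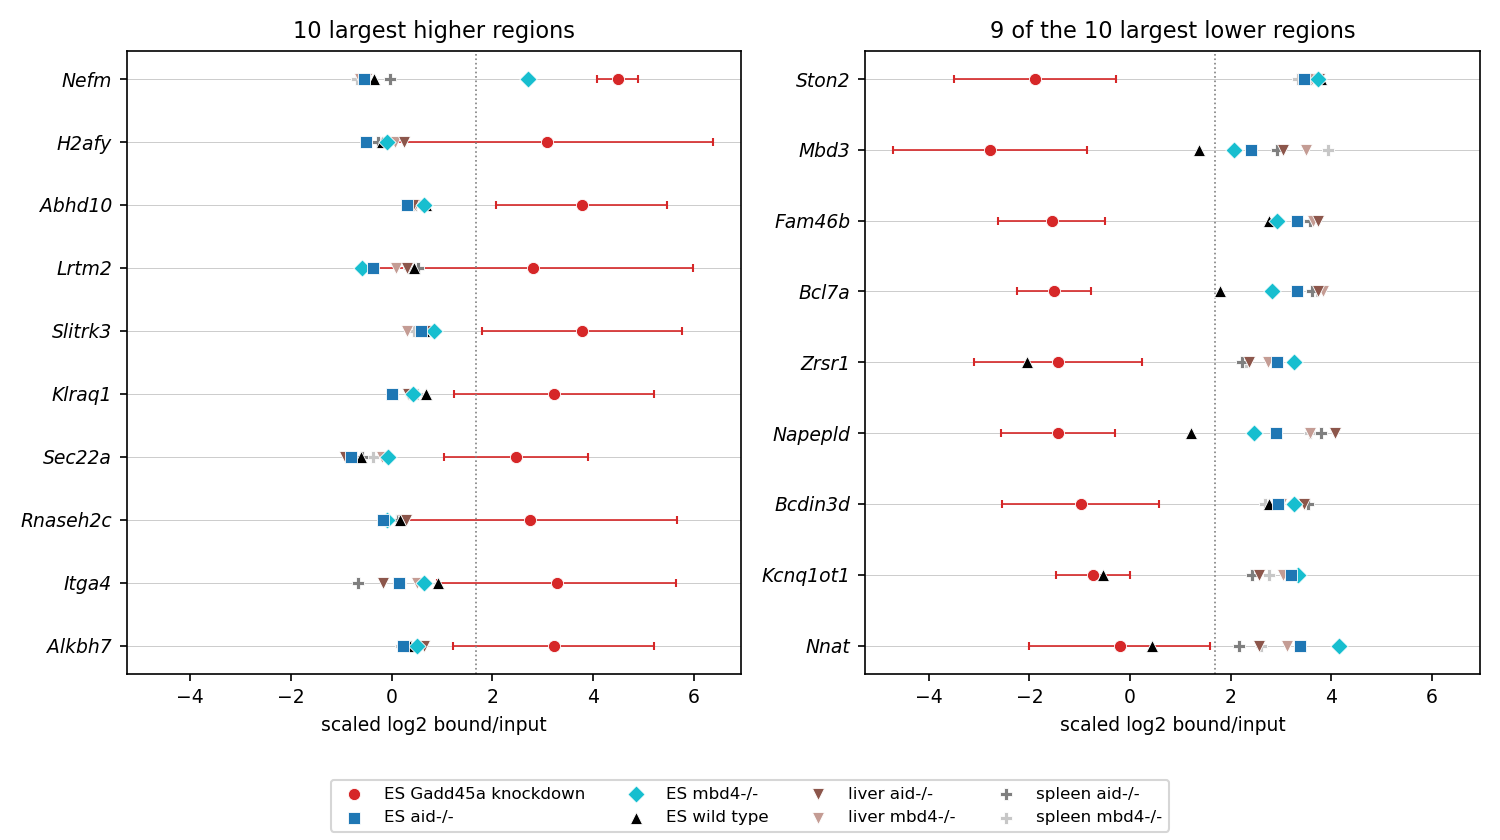
Scaled log2 bound over input (x axis) of the 10 regions furthest above (left) and 9 of the 10 furthest below (right) the mean of the knockouts, on all 8 arrays; symbols are arrays, red bars are the SD over probes in the knockdown, and the dotted line marks 50% of the plateau. On the right the knockdown lies left of the line at every region while both knockouts and all tissue arrays lie right of it, and wild type falls on either side.

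The higher regions fell into separate kinds too. In 851 of the 975 both knockouts were low, at medians of −0.32 (aid-/-) and −0.04 (mbd4-/-), and the knockdown was at 1.38 and wild type at 0.12. Of these 851, 578 also differed by 1 log2 unit without scaling. In 88 both knockouts were high, at 3.56 and 3.67, and the knockdown was at 5.08. None of these 88 differed by 1 log2 unit without scaling, so their place among the higher regions rests on the scaling. The factor was 1.2 for the knockdown array, 0.78 for aid-/- and 0.78 for mbd4-/-. Peg13, an imprinted noncoding RNA gene, was of this kind, at 6.54 against 3.78 and 4.56.

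The 10 largest higher regions lay 2.86 to 3.4 above the mean of the knockouts. The knockdown was high at all 10, and wild type reached at most 0.93. All liver and spleen values were between −0.92 and 0.87. Probe ranges did not overlap at 6 of the 10, against 10 of the 10 largest lower regions, and over all members they did not overlap at 177 of 975 higher (1.38% of all regions) and 413 of 920 lower regions (3.22%).

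Nefm stood at 4.49 ± 0.4 (SD over 14 probes) in the knockdown, 2.72 ± 0.38 in mbd4-/-, −0.54 ± 1.01 in aid-/- and −0.34 in wild type, and at −0.69 to −0.04 in liver and spleen. The 3 groups of probes did not overlap, and the mbd4-/- array was high as well. Without scaling the knockdown was at 3.73 and mbd4-/- at 3.48, so the excess over mbd4-/- depended on the scaling while the excess over aid-/- did not.

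H2afy (Macroh2a1), the gene of the histone variant macroH2A1, stood at 3.08 ± 3.31 over 3 probes in the knockdown (chr13:56236999-56237248), against −0.51 ± 1.17 and −0.1 ± 0.9 in aid-/- and mbd4-/-. Its probes were at 3.53, −0.44 and 6.14, and with GC correction it no longer met the rule. Abhd10, a mitochondrial depalmitoylase gene, stood at 3.78 ± 1.7 over 3 probes (chr16:45742764-45743142), against 0.31 ± 0.57 and 0.64 ± 0.33. Slitrk3, a synaptic adhesion gene, stood at 3.78 ± 1.99 over 3 probes (chr3:72861250-72861580), against 0.59 ± 0.3 and 0.84 ± 0.3. In Abhd10 and Slitrk3 no knockdown probe reached down to the knockouts, and in H2afy probe 2 did.

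Lrtm2 stood at 2.81 ± 3.18 over 4 probes, against −0.36 and −0.58. Klraq1 (Ppp1r21), an endosomal protein gene, stood at 3.23 ± 1.98 (chr17:88929272-88929473, 3 probes), against 0.0 and 0.42, and all 3 probes lie in the RefSeq promoter window of the gene. Itga4, the alpha-4 integrin gene, stood at 3.28 ± 2.38 (chr2:79095483-79096163, 5 probes), against 0.14 and 0.64. Its 5 probes were at 5.75, 1.39, 5.88, 0.92 and 2.45, while those of wild type ranged from 0.54 to 1.27. Sec22a, a vesicle transport gene (2.48 ± 1.43), Rnaseh2c, a subunit gene of RNase H2 (2.75 ± 2.92), and Alkbh7, a mitochondrial dioxygenase gene (3.22 ± 1.99), complete the 10.

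**Figure D3:**
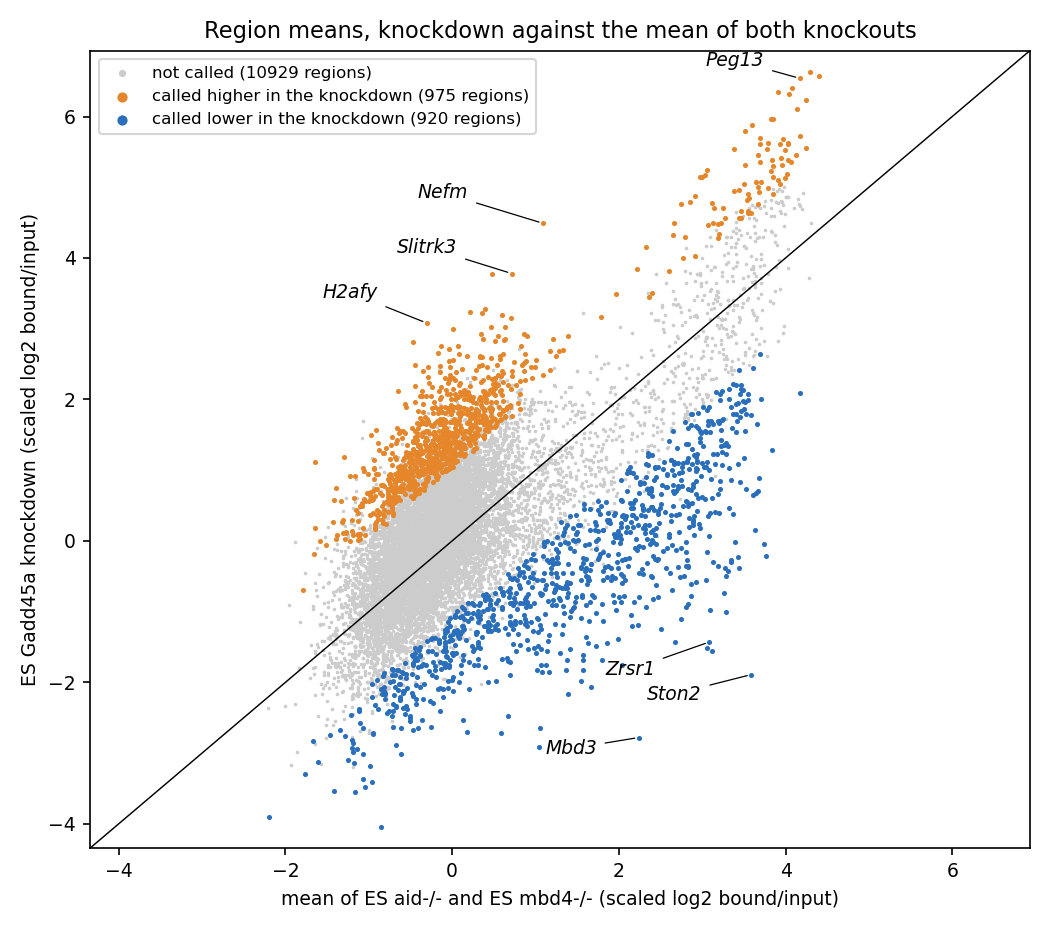
Each point is 1 of 12824 regions, with the mean of ES aid-/- and mbd4-/- on the x axis and the Gadd45a knockdown on the y axis, both as scaled log2 bound over input; orange and blue mark regions called higher and lower and the line marks equal values. The higher regions form a cloud over low knockout values and a separate group above the plateau, and the lower regions run from low knockout values to the plateau.

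The rule did not use wild type, liver or spleen, but these arrays followed the knockouts that it did use. Over regions wild type correlated at r = 0.879 with aid-/- and at 0.888 with mbd4-/-. The shares below therefore describe the members and are not independent of the rule. Of the 920 lower regions 278 (30.2%) were high in wild type and 380 (41.3%) were high on all 4 liver and spleen arrays, against 6.25% and 7.56% of all regions. Of the 975 higher regions 86 (8.82%) were high in wild type and 81 (8.31%) on all tissue arrays. Wild type was nearer to the knockdown than to the mean of the knockouts at 167 lower regions (18.2%) and at 100 higher regions (10.3%), against 30.4% of all regions. The rule itself set the knockdown apart from the knockouts at the members, so these shares depend on it too.

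Regions high on wild type, liver and spleen alike numbered 699. Of these 698 were high in aid-/- and 695 in mbd4-/-, but 478 (68.4%) in the knockdown, and 239 of them (34.2%) met the rule for lower. Low regions on the same 5 arrays numbered 10351, of which 3 were high in aid-/-, 18 in mbd4-/- and 284 (2.74%) in the knockdown. There the rule for higher was met at 794 (7.67%), a share near that of all regions.

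Regions where 1 array stood alone were counted for each of the 8 arrays. For the knockdown these are largely the members themselves, since the knockouts are among the other arrays: 113 of the 116 and 201 of the 248 regions below met the rule. The knockdown was low at 116 regions that were high on all 7 other arrays, and each other array was so at 0 to 2. The knockdown was high at 248 regions that were low on all 7 others, and each other array was so at 0 to 4. Fut7, a fucosyltransferase gene, stood at −1.75 in the knockdown and at 1.9 to 3.17 on the other arrays. Among those high in the knockdown alone, Scamp2, a membrane trafficking gene, was at 2.93 and at most 0.55 elsewhere. Both were picked after their values were seen.

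A comparison of the knockouts with each other, by the same rule, gave 101 regions higher in aid-/- and 150 higher in mbd4-/- (1.96% of all regions together). Against aid-/- alone the knockdown was higher at 1870 (14.6%) and lower at 1190 (9.28%), or 23.9% together. Against mbd4-/- alone it was higher at 1239 (9.66%) and lower at 1210 (9.44%). Against wild type it differed at 2223 (17.3%), of which 856 were lower (6.67%). These comparisons share the knockdown array. Over the 12824 regions the knockdown correlated with aid-/- at r = 0.59 and with mbd4-/- at 0.672, and the knockouts with each other at 0.921. With wild type the knockdown correlated at 0.712, and with the liver and spleen arrays at 0.517 to 0.599. These values are a description over regions that share their arrays and probe composition.

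Imprinted genes are expressed from 1 parental allele, and their control regions carry methylation on the other. Of 50 regions 15, from 12 genes, were lower (30%, against 7.17% of all regions) and 3 higher (6%, against 7.6%), with a median difference of −0.07 against 0.18 over all regions. At all 15 the knockdown and wild type were low and all 4 liver and spleen arrays were high, and both knockouts were high at 12. The medians over the 15 were −0.35 in the knockdown and −0.35 in wild type, against 3.1 in aid-/-, 3.43 in mbd4-/- and 2.63 over the tissue values. With normexp background 8 of the 50 were lower, and so were 8 when every probe had to lie on that side. The median difference of the list was above 0 with the 95th percentile as plateau (0.13), with centring on the low mode (0.16) and with probes up to 250 bp apart (0.06). Over all regions it was 0.19, 0.4 and 0.18 in these alternatives, so the list stayed below all regions. With normexp background the list (−0.1) was level with all regions (−0.11).

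Besides Zrsr1, Kcnq1ot1 and Nnat, the lower imprinted regions were those of the genes below. Peg3, a zinc finger gene, was at −0.42 (knockdown) and −0.86 (wild type), against 3.25 and 3.37. Peg10, a retrotransposon-derived placental gene, was at −0.39 and −0.44, against 3.1 and 3.45. Airn, the RNA that silences Igf2r, was at 0.07 and −1.04, against 2.94 and 3.23. In these 3 the knockdown lay closer to wild type than to either knockout.

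Grb10, a growth inhibitor, was at 0.38 (knockdown) and −0.43 (wild type), against 3.31 and 3.43, and Plagl1, a zinc finger growth regulator, at 0.71 and −0.12, against 3.18 and 4.17. Gnas, which encodes the stimulatory G protein alpha subunit, had 4 lower regions, the largest with 20 probes at −0.01 and 0.28, against 3.31 and 3.47. Another Gnas region (chr2:174122729-174123051, 3 probes) was at −0.49 ± 1.9 and −0.35, against 3.1 and 3.48, and its difference was −0.17 with normexp background. Inpp5f was at −0.35 and 0.41, against 3.06 and 3.32.

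At Mcts2 and Nap1l5, both imprinted retrogenes, the knockouts themselves parted. Mcts2 was at 1.22 in aid-/- and 3.57 in mbd4-/-, with the knockdown at −0.51 and wild type at −1.04. Nap1l5 was at 1.13 and 4, with the knockdown at −0.39. Peg13, higher in the knockdown, was also high in wild type (3.76). Over all 12824 regions, 37 were high in both knockouts and low in wild type, and 29 of those were lower in the knockdown.

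The clustered protocadherins are adhesion genes from which each neuron expresses its own combination. Of 11 regions 7 were lower (63.6%, against 7.17% of all regions) and 1, Pcdha2, was higher (9.09%, against 7.6%), with a median difference of −1.69 against 0.18. Pcdhga11 stood at −0.8 ± 1.84 (4 probes) in the knockdown, 2.45 and 2.48 in aid-/- and mbd4-/-, and 3.54 in wild type. Pcdhga12 had 2 lower regions, at −0.1 and −0.07, against 2.72 and 2.61 in aid-/-, 2.43 and 1.87 in mbd4-/- and 4.1 and 2.76 in wild type. Pcdhgb8 stood at −1.24 ± 1.3 (5 probes), against 1.35 and 0.79 in aid-/- and mbd4-/- and 3.16 in wild type. In these 4 gamma cluster regions wild type was thus above both knockouts.

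In the alpha cluster wild type was at or below them. Pcdha12 was at −0.76 (knockdown) and −0.45 (wild type), against 1.03 and 1.11. Pcdha6 (0.68) and Pcdha4 (0.96) were lower in the knockdown, with wild type at 1.3 and 1.44, and Pcdha2 was higher, at 3.82 against 2.51 and 2.69. Both knockouts were high at Pcdha2, so its call rests on the scaling of the arrays. No protocadherin region was higher without scaling, with normexp background or in the deposited value table. All 8 called regions were high on all 4 tissue arrays. The list kept a negative median in every alternative, and its lower regions numbered 4 with normexp background, 4 with GC correction and 2 of 8 in the deposited value table.

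Many germline genes are silenced in somatic cells by promoter methylation, and here 9 of 29 regions were lower (31%, against 7.17% of all regions) and 1 higher (3.45%, against 7.6%), with a median difference of −0.55 against 0.18. The list was rich in regions high in both knockouts, 19 of the 29, and 6 of these 19 were lower. Of all regions high in both knockouts 41% were lower, so the list did not stand out within that class. Piwil2, a piRNA pathway gene, stood at 0.77 ± 0.99 (3 probes) in the knockdown, 2.85 and 2.57 in aid-/- and mbd4-/- and 1.82 in wild type. Gm1564 (Meioc), a meiosis gene, was at 0.06, against 2.15, 1.75 and 1.25, and Msh4, a meiotic recombination gene, at −0.14, against 1.42, 1.5 and 0.43. At each of these 3 wild type lay between the knockdown and the knockouts.

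Ddx4, the germ cell RNA helicase gene, was at 1.15, against 2.75, 2.51 and 2.17, and Tdrd1, a tudor protein of the piRNA pathway, at 1.69, against 3.12, 3.1 and 2.18. Hormad1, a chromosome axis gene, was at 2.08, against 3.27 and 3.16, and so was still high in the knockdown. Dpep3, a testis dipeptidase gene, was higher at 5.62, against 3.62 and 3.97, but its difference was −0.21 without scaling. Lower germline regions numbered 19 without scaling, but 7 with GC correction and 7 with the 95th percentile as plateau. They numbered 4 with all probes in the direction and 3 at a difference of at least 1.5.

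Genes of developmental regulators were taken in 2 lists. Over all regions 7.17% were lower and 7.6% higher. Of 240 Hox and other homeobox regions 25 were lower (10.4%) and 8 higher (3.33%), and of 181 regions of T-box, Pax, Fox, Gata and Sox genes 16 were lower (8.84%) and 12 higher (6.63%). Both knockouts were high at 3 of the 25 and at 3 of the 16. Hoxd12 stood at −0.87, against 1.84 and 2.04 and 1.05 in wild type, and its difference of −2.81 was −1.38, and not called, in the deposited value table. Foxr1, a forkhead gene, stood at −0.61, against 2.87 and 2.87, and wild type was at 0.87. Pax6, the eye and brain regulator, was at −2.09 ± 2.1, against 0.58 and −0.18, with 2 of 4 probes above background in the knockdown, and lost its call with normexp and with GC correction. Six2, a kidney regulator, was at −0.95, against 1.91 and 0.98, Lhx6, an interneuron regulator, at −1.41, against 1.28 and 1.01, and Emx2, a cortex regulator, at −0.56, against 2.17 and 1.12.

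Neighbouring regions of a single gene could lie on opposite sides. Pax5, the B cell regulator, had a region of 4 probes at −1.78 (GC content 50.5%) in the knockdown, against 0.19 and −0.26, and a region of 7 probes next to it at 1.73 (60.3%), against −0.44 and 0.23. The higher one was not called without scaling, with normexp background or with GC correction. Ebf1, another B cell regulator, also had a region at 2.2, against 0.6 and 0.93, and a region at −1.76, against −0.23 and −0.39. Foxf1a (Foxf1) was lower at −1.56, against 0.99 and 1.29, and Gm5607 (Sox1ot), a transcript beside Sox1, higher at 2.56 ± 2.73, against −0.47 and 0.48.

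Of 91 Wnt regions 11 were lower (12.1%, against 7.17% of all regions) and 2 higher (2.2%, against 7.6%), with a median difference of 0.06 against 0.18. Of the 14 that were high in both knockouts 8 were lower, against 41% of all such regions. Wnt3a, a ligand, stood at −0.39 ± 0.77 (5 probes) in the knockdown, against 3.3, 3.59 and 3.8 in aid-/-, mbd4-/- and wild type. Wnt3 was at 0.16 ± 0.39 (6 probes), against 3.75, 3.52 and 3.56, and Wnt7b at 0.2 ± 0.32, against 2.8, 2.89 and 1.97. Apc2, a relative of the destruction complex scaffold, was at 1.07, against 3.16, 3.32 and 2.87. In the 3 ligand genes all liver and spleen values were 2.91 or more.

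Of 95 axon guidance regions 11 were lower (11.6%, against 7.17% of all regions) and 3 higher (3.16%, against 7.6%), with a median difference of 0.13 against 0.18. Of the 16 that were high in both knockouts 8 were lower, against 41% of all such regions. The ephrin receptor genes Epha2 (−0.89 ± 2.16, 7 probes), Epha8 (0.4 ± 0.53, 6 probes) and Ephb3 (−0.06 ± 0.81, 4 probes) stood at 2.71, 3.33 and 2.75 in aid-/-. Robo3, a receptor that steers axons across the midline, was at −0.56, against 2.09 and 2.06. In the neural structural and synaptic list 5 of 49 were lower (10.2%) and 4 higher (8.16%), among them Nefm and Slitrk3. Slc32a1, the vesicular GABA transporter gene, was at −0.46 ± 1.42 (12 probes), against 2.64, 2.59 and 2.83 in wild type, with liver and spleen at −0.81 to 0.04, so it was high in the other ES arrays alone.

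Of 33 pluripotency regions 5 were lower (15.2%, against 7.17% of all regions) and 1 higher (3.03%, against 7.6%). Sall4, a zinc finger regulator of ES cells, had 2 lower regions, at −0.05 ± 0.69 (5 probes), against 3.74 and 3.75, and at 0.3 ± 0.86 (4 probes), against 3.01 and 2.76. Wild type was at 3.63 and 2.46 there. Zscan10, an ES cell zinc finger gene, was at 0.37, against 2.63 and 2.75. Sox2 (3 probes) was at −2.3, against −0.17 and −0.69, but no probe was well above background in the knockdown or in aid-/-, so no fold is given. Klf4 was higher at 1.03, against −0.32 and 0.01.

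The genes of the pathway itself held few regions. The region of Gadd45a (chr6:66986497-66987387, 7 probes) stood at −0.65 ± 2 in the knockdown, −1.11 ± 1 in aid-/-, −1.19 ± 1.74 in mbd4-/- and −0.65 in wild type, within the spread of its probes. Mbd4 had 2 probes and so no region. Of 17 regions of demethylation and base excision repair genes 1 was lower (5.88%, against 7.17% of all regions) and none was higher (against 7.6%). So few regions do not set the list apart from all regions. The lower one was Smug1, a uracil glycosylase gene, at −2.09 ± 2.06, against −0.83 and −0.88.

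In the list of methylation machinery and readers, 3 of 31 were lower (9.68%, against 7.17% of all regions), Mbd3, Kdm2b and Tet3. Only Mbd1 was higher (3.23%, against 7.6%). Kdm2b, a histone demethylase that binds CpG islands, was at 0.73 ± 0.73 (5 probes), against 3.67, 3.39 and 3.4 in wild type. Tet3, which oxidises methylated cytosine, was at 1.85, against 3.02, 3.09 and 3.2, and so was high on every ES array. Its difference was −0.72, short of the threshold, with the 95th percentile as plateau. Mbd1, a methyl-CpG binding protein gene, was at 1.52, against 0.32 and 0.24.

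In the list of Gadd45 partners and DNA damage response genes, more regions were higher than lower, with 7 of 44 regions higher (15.9%, against 7.6% of all regions) and 1 lower. Its median difference, 0.13, was below the 0.18 of all regions and changed sign under some alternatives. With normexp background it was −0.11, and so was the median of all regions. Sesn1, a stress-induced sestrin gene, stood at 3.03 ± 2.19 (4 probes), against 0.46 and 0.8. Pmaip1, which encodes the pro-apoptotic protein Noxa, was at 2.92 ± 0.61 (6 probes), against 0.39 and 1.34, and was not called without scaling. Brca2 was at 1.81 ± 1.69 (3 probes), against −0.42 and −0.04. Map3k4, a kinase that binds Gadd45 proteins, had 2 higher regions, of which the larger was at 6.1, against 4.11 and 4.17. Both knockouts were high at that region, so it is among the 88 of which none differed by 1 log2 unit without scaling.

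Cdkn1a, the cell cycle inhibitor p21, had the lower region of this list: 0.68 ± 0.41 over 3 probes (chr17:29235369-29235583), against 3.61 ± 0.19 and 3.67 ± 0.25, and 3.3 in wild type. Its larger region of 17 probes was at 0.09, against −0.1 and −0.08. Higher regions of this list numbered 3 without scaling and 3 with normexp background.

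The other lists served for comparison with the 7.17% lower and 7.6% higher of all regions. Of 31 housekeeping regions 1 was higher, Psma3, a proteasome subunit gene (2.05 ± 3.01), and 1 lower, Rpl8, a ribosomal protein gene (−2.15 ± 1.18, against −0.33 and −0.64). Of 15 regions of fibroblast genes, which feeder cells would carry, 1 was higher, Col6a2, and 1 lower, Loxl1. Of 35 blood and immune regions 5 were lower, such as Zap70, a T cell kinase gene (−0.72, against 1.03 and 1.41), and Bcl11a, a globin regulator (0.76, against 2.67 and 2.47), and 2 were higher. None of 10 replication-dependent histone regions was called.

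**Figure D4:**
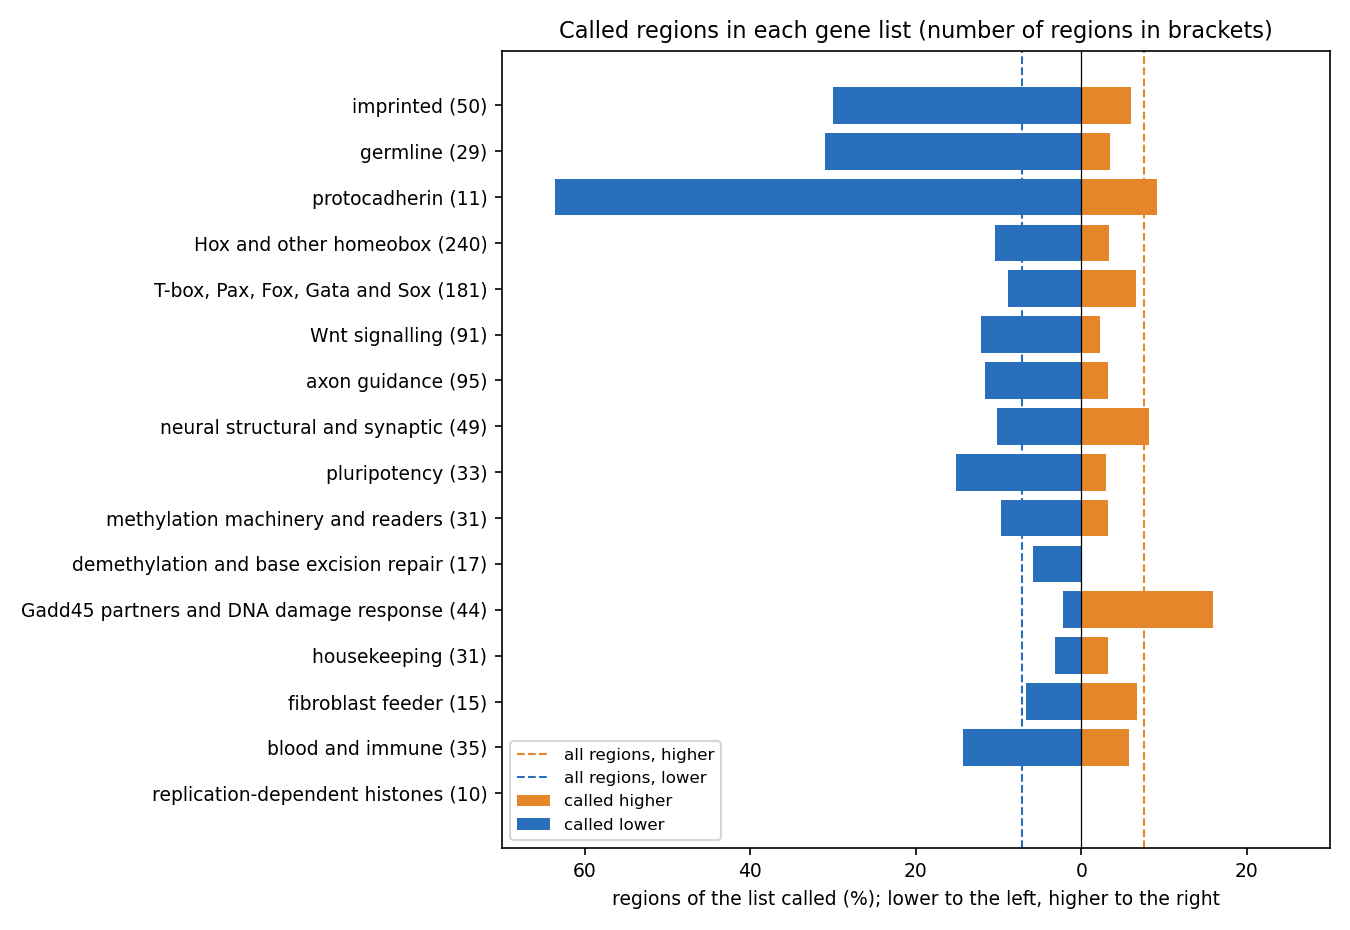
Share of each gene list's regions called lower (blue, to the left) and higher (orange, to the right) in the knockdown, in percent, with the number of regions in brackets; dashed lines mark the shares over all regions. The protocadherin, germline and imprinted lists reach 63.6%, 31% and 30% lower, and the Gadd45 and DNA damage list reaches 15.9% higher. In the first of these lists 6 of 11 regions were high in both knockouts, in the germline list 19 of 29 and in the imprinted list 17 of 50. Over all 12824 regions 968 were.

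At some members wild type also differed from both knockouts, by the same rule and in the knockdown's direction. Among the lower regions these included Zrsr1, Kcnq1ot1 and Nnat, and also Bcl7a and Napepld, where wild type was nevertheless nearer to the knockouts than to the knockdown. The 5 largest such higher regions had modest levels. Atxn7, a subunit gene of the SAGA complex, was at 2.12 ± 0.9 (knockdown) and 0.87 (wild type), against −0.44 and −0.87. Rdbp (Nelfe), a pausing factor gene, was at 1.12 and −0.06, against −1.85 and −1.43, and Cbx7, a Polycomb gene, at 1.18 and 0.62, against −1.88 and −0.72. Esam was at 0.92 and 0.17, against −0.98 and −1.36, and A330040F15Rik at 1.49 and 0.65, against −0.39 and −0.45. Bound signal was weak in the knockouts there, with 0 of 4 Rdbp probes well above background in aid-/- and 1 of 4 Esam probes in each knockout, and none of these 5 met the rule with normexp background.

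At the threshold the values were these. Just inside, Ano1 was at 1.95 against 0.62 and 0.95, Gdf7 at 0.0 against 1.26 and 1.01, and Hoxa3 at −3.3 against −1.23 and −2.29. For Hoxa3 no probe was well above background in either knockout and 1 of 3 in the knockdown, so its values are bounds. Just outside, Adipor1 was at 0.91 against −0.34 and −0.09, Abl2 at 0.76 against −0.93 and −0.24, Adra2b at −1.39 against −0.39 and −0.29, and Slc2a6 at −0.71 against 0.29 and 0.39.

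The called regions differed from the rest in sequence. Higher regions had a median probe GC content of 59.5% and lower regions 54.1%, against 56.7% over all regions. From the lowest to the highest of 10 equal bins of regions by GC, the share called higher went from 4.44% to 19.5% and the share called lower from 18.6% to 1.4%. The median level of the knockdown went from −0.63 to 0.79 over these bins, that of mbd4-/- from −0.33 to 0.17, that of wild type from −0.43 to 0.17, and that of aid-/- from −0.07 to −0.22. The knockdown array thus moved with GC more steeply than the other ES arrays, while its part in the calls was not tested beyond 1 alternative. With each array centred within 20 bins of GC, 696 regions were higher and 805 lower, with 483 of the 975 and 648 of the 920 among them.

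**Figure D5:**
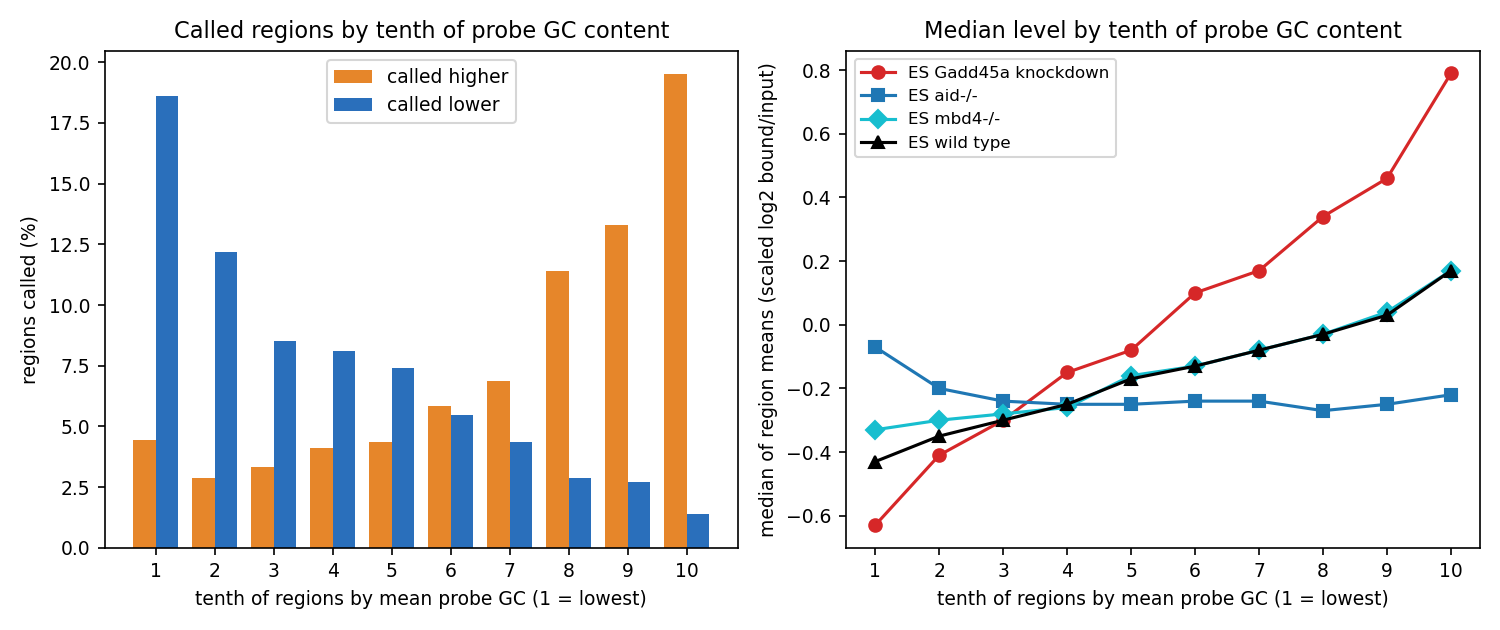
Left, percent of regions called higher (orange) and lower (blue) in each of 10 equal bins of regions by mean probe GC content (x axis, 1 is the lowest); right, median of region means on the 4 ES arrays in the same bins. Higher calls reach 19.5% in the highest bin, lower calls reach 18.6% in the lowest, and the knockdown rises from −0.63 to 0.79.

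Position near a gene start also differed. A probe in a RefSeq promoter window was present in 52.6% of all regions, in 48.8% of higher and in 21.8% of lower regions. Among regions high in both knockouts the shares were 7.81% for the 397 called lower and 8.41% for the 571 others, so within this class lower regions were placed like the rest. The 851 higher regions that were low in the knockouts held such a probe at 54.1%, and the 88 at the plateau at 3.41%. The probes of the 851 were uneven in the knockdown, with a median SD of 1.56 and an SD under 1 at 16.9%, against 93.2% of the 88, 54.9% of the 397 and 19.9% of all regions. In the 302 lower regions that were low in both knockouts the median SD was 1.42, with an SD under 1 at 24.2%. A promoter window probe was present in 43.4% of these 302.

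The split between directions depended on the scale. Higher regions made up 51.5% of the members, but 37% without scaling, 69.1% when arrays were centred on their low mode, 26.2% with normexp background, 35% in the deposited value table and 40.5% without the filter on input signal. Of the 920 lower regions 759 were also lower without scaling and 576 with normexp background, and of the 975 higher regions 526 and 238. Among regions named above, Foxf1a, Wnt7b, Six2, Emx2, Msh4, Bcl11a, Pcdhgb8, Brca2 and Mbd1 also lost their calls with normexp background. The same held for Sox2, Ano1, Hoxa3 and 1 of the Pcdhga12 regions. Without scaling, so did Sox2, Gm5607, Rpl8, Smug1, Mbd1, Col6a2, Ano1 and Hoxa3. In the deposited value table Lrtm2, Msh4, Emx2, Pmaip1, Pcdhgb8, Dpep3, Col6a2, Loxl1, Gdf7, Ano1 and 1 of the Pax5 regions were not called. With GC correction Sox2, Smug1, Pcdhgb8, Loxl1, Col6a2, Ano1 and Hoxa3 were not.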

How the data were processed

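Each of the 8 samples was 1 two-colour Agilent CpG island array (input DNA in Cy3, bound DNA in Cy5). The processed red and green intensity of each spot was made by Agilent Feature Extraction 10.7.3.1 (mbd4-/- and knockdown ES cells) or 10.9.1.1 (other arrays), per the file headers, which also give build mm9. The deposited log10 ratio from the scanner, red over green, showed which way each ratio runs and had no other use. A deposited table holds 1 score a probe and sample from the authors; its scale and log base are not given in the sources used here, and it served as an alternative.

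From these files, log2 of red over green was centred on the median of non-control probes and scaled so that the 98th percentile of region means was equal on all arrays. Probes without 1 position in both design versions (326), outliers (132) and those with dim input on some array (7309) were left out. The 78888 remaining autosomal probes were joined where starts lay up to 500 bp apart, which gave 12824 regions of 3 or more probes. With 1 array a group no test was possible, and a call is a difference of at least 1 with at least 75% of probes on that side. Text names the 10 largest regions in each direction, those nearest the threshold, those where wild type differed from both knockouts in the knockdown's direction, those furthest from wild type, and the largest called members of each gene list; other called list members were named after their values were seen, and a few regions that the rule names are not reported here. The members and gene lists were chosen with earlier results of these data known. Alternatives changed the scaling, background (normexp in limma 3.58.1 on median spot and local background signals, offset 50), GC, filters and thresholds. The calling code was tested on simulated data with equal probe noise on the arrays compared, below that of the real knockdown array. That test therefore says nothing on calls that arise from the noise of the knockdown array. Gene names were updated through RefSeq, and promoter windows of GRCm38.p6 were matched by identical probe sequence. Python 3.11.15, numpy 2.4.6, pandas 2.3.3, scipy 1.17.1 and R 4.3.3 were used.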

Additional observations from a re-analysis of the deposited data

How the results depend on the processing

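The 975 higher regions became 1499 with the 95th percentile as plateau, 1544 with centring on the low mode, 449 with normexp background, 324 in the deposited value table, 472 with 5 or more probes, 315 at a difference of at least 1.5, 454 with all probes in the direction and 1870 against aid-/- alone. The 920 lower regions became 603 in the deposited table, 406 with 5 or more probes, 531 at 1.5 and 610 with all probes. Under the other alternatives both counts were within 1.5 times of these. The median of probes and leaving out chromosome 8 were chosen after seeing the data, and gave 867 and 938 higher and 955 and 820 lower. Among named regions, signs turned for Dpep3 (−0.21) and Col6a2 (−0.63) without scaling, for Sox2 (0.64), Ano1 (−0.13) and Cbx7 (−0.08) with normexp background, and for Gm5607 (−0.27) without the filter on input; the cause was not tested. The median difference over all regions was 0.18, and 0.4 with the low mode, −0.11 with normexp and 0.05 without the input filter. No paired analysis was possible because each group has 1 array. That number limits the precision: the spread between cultures is unknown, and a dim bound signal gives only a bound.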
